A study of Mus musculus with 6 samples.

Results

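The 10 integrin genes described here encode the subunits that epithelial cells use most: the α subunits Itga2, Itga3, Itga5, Itga6 and Itgav and the β subunits Itgb1, Itgb4, Itgb5, Itgb6 and Itgb8. They were chosen by name, and all 10 were among the 53599 genes of the count table. RNA was sequenced from mouse hepatocytes isolated 4 days after mice received an AAV8 vector (adeno-associated virus) whose liver-specific TBG promoter drove either Cre alone (empty vector, EV, labelled WT in genotype) or HA-tagged Sox4, an SRY-related HMG-box transcription factor, joined to Cre by a P2A peptide (Sox4). Both groups therefore carried Cre, and by the study's methods the recipients were male mice with a Cre-dependent Cas9-EGFP allele at Rosa26 on a C57BL/6J background. The labels give no age, and the methods describe young mice, several weeks old at injection. Each group had 3 libraries, from 3 animals, and the cells were enriched by enzymatic digestion and density centrifugation rather than by a sort, so cells of other types could remain.

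Integrins are heterodimers of an α and a β subunit that bind matrix outside the cell and, through talin and kindlin at the β tail, actin inside it. The pairing sets the ligand: α3β1 and α6β1 bind laminin, α6β4 binds laminin and anchors keratin filaments in hemidesmosomes, α2β1 binds collagen, and α5β1 and the αv integrins bind the RGD motif of fibronectin, vitronectin and latent TGF-β. Hepatocytes in the normal lobule lie along a space without a continuous laminin-rich basement membrane, whereas bile duct epithelium rests on one and carries laminin-binding integrins.

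Itga6 and Itga3 were the subunits that the study also assayed by qRT-PCR, and the primers are shown because they mark which transcripts that assay reads. The study had other evidence on both. It stained ITGA6 protein in EGFP-labelled cells derived from hepatocytes, where it became detectable at or after the day of harvest used here. It also gave Itga3 as an example of chromatin opened with Sox4, with SOX4 bound at a putative enhancer away from the promoter. Placed on GENCODE M21 transcripts (GRCm38), the forward Itga6 primer lay in exon 24 (chr2:71849442-71849461, plus strand) and the reverse primer in exon 26 (chr2:71855882-71855901). The forward Itga3 primer lay in exon 1 (chr11:95076169-95076187) and the reverse in exon 2 (chr11:95068780-95068802), the gene being on the minus strand.
Itga6 forward: tcatcctcctggctgttctt
Itga6 reverse: gtatcggggaatgctgtcat
Itga3 forward: cctcttcggctactcggtc
Itga3 reverse: ccagtccggttggtatagtcatc
Both Itga6 primers matched 3 of 8 annotated transcripts, with a product of 113 or 243 bases depending on the exons between them, and both Itga3 primers matched 2 of 6 transcripts with a product of 117 bases. The counts described here are sums over a whole gene and do not separate these splice forms.

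The 250 bases before the annotated start were read from RefSeq (GRCm38.p6) for 8 of the 10 genes, in 10 windows. No entry was held for Itga6 and Itgb4. The windows were searched on both strands for the SOX letters ACAAAG and ACAATG. Shown are Itga2, Itgb1 and Itgb5, picked with their values known, with any match in capitals. Itga2 was higher in Sox4 from very few EV counts, and Itgb1 is the shared β subunit. Itgb5 was called lower, but not when libraries were scaled by size alone. The Itga2 window is chr13:114932101-114932350 (minus strand), the Itgb1 window chr8:128685404-128685653 (plus) and the Itgb5 window chr16:33829415-33829664 (plus).
Itga2: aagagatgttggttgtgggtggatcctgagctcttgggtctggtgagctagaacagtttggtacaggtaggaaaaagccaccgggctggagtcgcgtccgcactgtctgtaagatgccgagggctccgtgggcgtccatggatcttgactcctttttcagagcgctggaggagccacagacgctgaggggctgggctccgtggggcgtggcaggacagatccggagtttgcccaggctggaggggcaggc
Itgb1: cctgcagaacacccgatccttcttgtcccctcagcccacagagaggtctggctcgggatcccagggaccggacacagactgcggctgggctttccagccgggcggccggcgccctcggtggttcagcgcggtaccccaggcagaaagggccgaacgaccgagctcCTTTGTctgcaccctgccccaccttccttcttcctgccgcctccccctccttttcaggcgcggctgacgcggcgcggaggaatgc
Itgb5: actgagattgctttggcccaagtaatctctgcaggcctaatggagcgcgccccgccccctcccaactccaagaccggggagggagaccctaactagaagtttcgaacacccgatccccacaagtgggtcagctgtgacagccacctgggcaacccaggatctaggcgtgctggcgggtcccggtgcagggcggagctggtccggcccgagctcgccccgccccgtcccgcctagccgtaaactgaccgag
The Itgb1 window held 1 match, CTTTGT on the strand shown, which is ACAAAG on the other, 85 bases before the start. An Itga3 start held the only other match among the members, 56 bases before it. A match in 2 of 10 windows stands beside 25.2% of the 32851 windows of this length that were searched, which did not cover every chromosome.

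The libraries held 15090629 to 16964860 gene counts. TMM scaling, which sets most genes to no change, gave the Sox4 libraries effective sizes averaging 1.49 times those of EV although their totals averaged 1.07 times. Values are CPM (counts scaled to a library of fixed size) on those sizes, as mean ± SD (n = 3). Of the 12691 genes tested, 29.0% were higher and 26.0% lower in Sox4 at a Benjamini-Hochberg adjusted p under 0.05 (edgeR quasi-likelihood test), and the groups did not overlap upwards for 33.0% and downwards for 30.0%. Scaled by library size alone, 79.9% of the calls were higher, against 52.7% with TMM, and the median log2 fold change of all genes was 0.51 instead of 0.041. Small differences therefore rest on the scaling. Sox4 itself had 2, 0 and 3 counts in EV and 21697, 15097 and 11816 in Sox4, in which vector and endogenous transcripts are not separated. EV replicate 1 had the lowest summed endothelial, Kupffer and stellate marker levels of all libraries except for the endothelial sum of Sox4 replicate 1.

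Among the 10 integrin genes, 6 were higher in Sox4 (Itga2, Itga3, Itga6, Itgav, Itgb1 and Itgb4), 1 was lower (Itgb5), 1 did not pass the threshold (Itga5) and 2 had too few counts to be tested (Itgb6 and Itgb8). The 7 genes past the threshold were also the 7 whose groups did not overlap. Over all genes tested, 29.0% were called higher and 26.0% lower. Groups did not overlap upwards for 33.0% and downwards for 30.0% of them. Itga2 and Itgb4 passed the filter on low counts only through the Sox4 libraries, so their calls are a description of genes that could enter the test in no other way. This leaves 4 higher. Among the genes that passed this filter through both groups, the rises ranged from 8.20-fold for Itga6 to 1.30-fold for Itgb1.

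**Figure D1:**
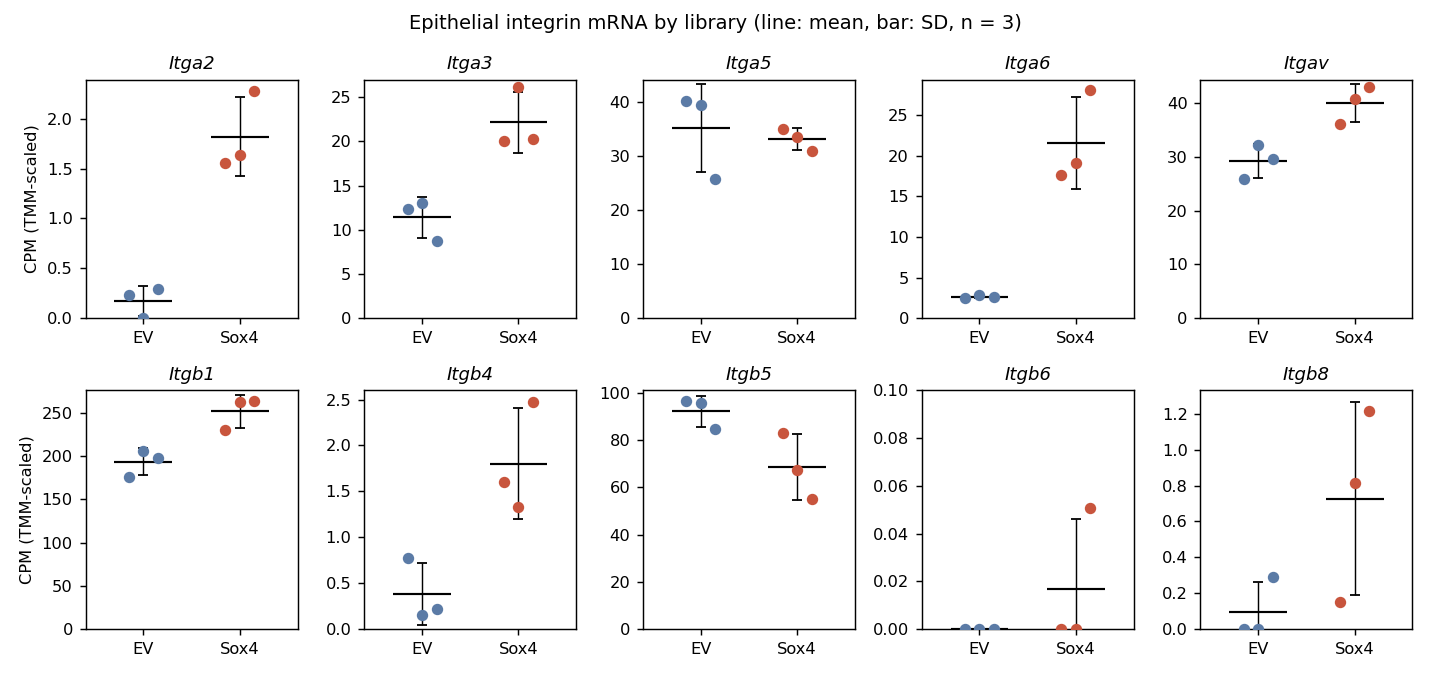
CPM (TMM-scaled sizes, linear axes that differ between panels) of each of the 10 integrin genes in the 3 EV and 3 Sox4 libraries. Each point is a library, the horizontal line the group mean and the vertical bar the SD. Itga6 lies between 2.46 and 2.81 in EV and between 17.6 and 28.1 in Sox4, whereas the groups of Itga5 overlap, and the fall of Itgb5 is absent with library size alone.

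Of the laminin-binding subunits, Itga6 (α6, chr2:71745616-71858416, GRCm38) changed most. It stood at 2.46, 2.81 and 2.61 CPM in the EV libraries and at 17.6, 19.1 and 28.1 CPM in the Sox4 libraries. The lowest Sox4 library was thus above every EV library by several fold. The means were 2.63 ± 0.172 and 21.6 ± 5.66 CPM (edgeR log2 fold change 3.04 ± 0.21 SE at adjusted p = 5.52e-06), and it kept between 2.80 and 3.16 when any library was left out. GENCODE M21 places 4 other annotated genes within its span (Gm13663, Gm17250, Gm13662 and Gm13739) and an antisense RNA, B230344G16Rik, over Itgb4, and the strand setting of the counting is not given in the sources used here.

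Itga3 (α3, chr11:95044474-95076801) was at 12.4, 13.0 and 8.78 CPM in EV and 20.1, 26.1 and 20.3 CPM in Sox4. Every Sox4 library was above every EV library. The mean rose from 11.4 ± 2.30 to 22.2 ± 3.43 CPM (edgeR log2 fold change 0.96 ± 0.22 SE at adjusted p = 0.00174). Itgb4 (β4, chr11:115974709-116008412), the hemidesmosomal partner that pairs with α6 alone, had 10, 2 and 3 counts in EV and 32, 26 and 49 in Sox4. It was the rarer side of that pair throughout, and its means were 0.380 ± 0.339 and 1.80 ± 0.602 CPM. The edgeR log2 fold change was 2.24 ± 0.58 SE, or 3.22 without EV replicate 1, the library with 10 counts. Itgb4 passed the filter on low counts only through Sox4, so these values are a description. Summed over each group the scaled counts differed by a ratio of 4.80, with an exact 95% binomial interval of 2.78 to 8.88 that covers counting error only.

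Itga2 (α2, chr13:114833081-114932100), the α subunit of a collagen receptor, had 3, 0 and 4 counts in EV and 31, 32 and 45 in Sox4. The EV libraries lay near the floor of 3 counts, which corresponds to 0.218 to 0.231 CPM there, and the Sox4 libraries were all above it. The means were 0.174 ± 0.153 and 1.82 ± 0.397 CPM (edgeR log2 fold change 3.33 ± 0.58 SE), with a count ratio of 10.4 (4.87 to 26.4). Itga2 passed the filter on low counts only through Sox4, so these values are a description. Its level per kilobase of exon in Sox4 was the lowest of the tested α subunits in the set.

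Itgb1 (β1, chr8:128685654-128733200), the partner of α2, α3, α5 and α6, was the most abundant of the set per kilobase of exon. It was at 176, 207 and 198 CPM in EV and 230, 262 and 264 CPM in Sox4. The groups did not overlap, but the step between them was small. The mean rose from 194 ± 15.9 to 252 ± 19.3 CPM (edgeR log2 fold change 0.38 ± 0.095 SE at adjusted p = 0.0253). With 1 library dropped at a time, the call stood only without Sox4 replicate 1. It was lost when EV replicate 1 (0.30, adjusted p = 0.119, edgeR), any other EV library or Sox4 replicate 2 or 3 was left out, the adjusted p then lying between 0.0543 and 0.119.

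Of the RGD-binding subunits, Itgav (αv, chr2:83724397-83806916) was at 25.9, 32.2 and 29.7 CPM in EV and 36.1, 40.8 and 43.0 CPM in Sox4. It rose in every Sox4 library relative to every EV library. The mean went from 29.3 ± 3.17 to 40.0 ± 3.52 CPM (edgeR log2 fold change 0.45 ± 0.12 SE at adjusted p = 0.0125), and without EV replicate 1 the value was 0.35 and did not pass (adjusted p = 0.0601, edgeR). Itga5 (α5, chr15:103344286-103366763), the α subunit of the classical fibronectin receptor, was at 40.1, 39.5 and 25.8 CPM in EV and 35.0, 33.6 and 30.9 CPM in Sox4. All 3 Sox4 libraries lay within the EV range. Its log2 fold change was -0.08 (SE 0.22, adjusted p = 0.701, edgeR) with TMM and 0.39 with library size alone.

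Itgb5 (β5, chr16:33829665-33949338), which pairs with αv in a vitronectin receptor, was at 96.5, 95.7 and 84.7 CPM in EV and 82.9, 67.6 and 55.1 CPM in Sox4. The highest Sox4 library was only just below the lowest EV library. The mean fell from 92.3 ± 6.57 to 68.5 ± 13.9 CPM (edgeR log2 fold change -0.43 ± 0.18 SE at adjusted p = 0.0340). Scaled by library size alone the value was 0.04, and the call was also lost when EV library 1 or 2 or Sox4 library 2 or 3 was left out, where it ranged from -0.29 to -0.42 with adjusted p between 0.0732 and 0.104.

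Itgb8 (β8, chr12:119158022-119238802), whose dimer with αv activates latent TGF-β, had 0, 0 and 4 counts in EV and 3, 16 and 24 in Sox4. Sox4 replicate 1 was at the floor and below the highest EV library, so the groups overlapped. The scaled counts differed by a ratio of 7.24 with a counting interval of 2.63 to 27.8, which takes no account of the spread between animals. It passed without the filter on low counts (log2 fold change 2.82, adjusted p = 0.00636, edgeR), and in the fits without EV replicate 3 or without Sox4 replicate 1 it passed the filter and the threshold. Itgb6 (β6, chr2:60598292-60722643), another activator of TGF-β that epithelia switch on in injury, had 0 counts in every EV library and 0, 0 and 1 in Sox4. At this depth a count of 0 allows up to 0.231 CPM in an EV library, and no difference was detectable.

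**Figure D2:**
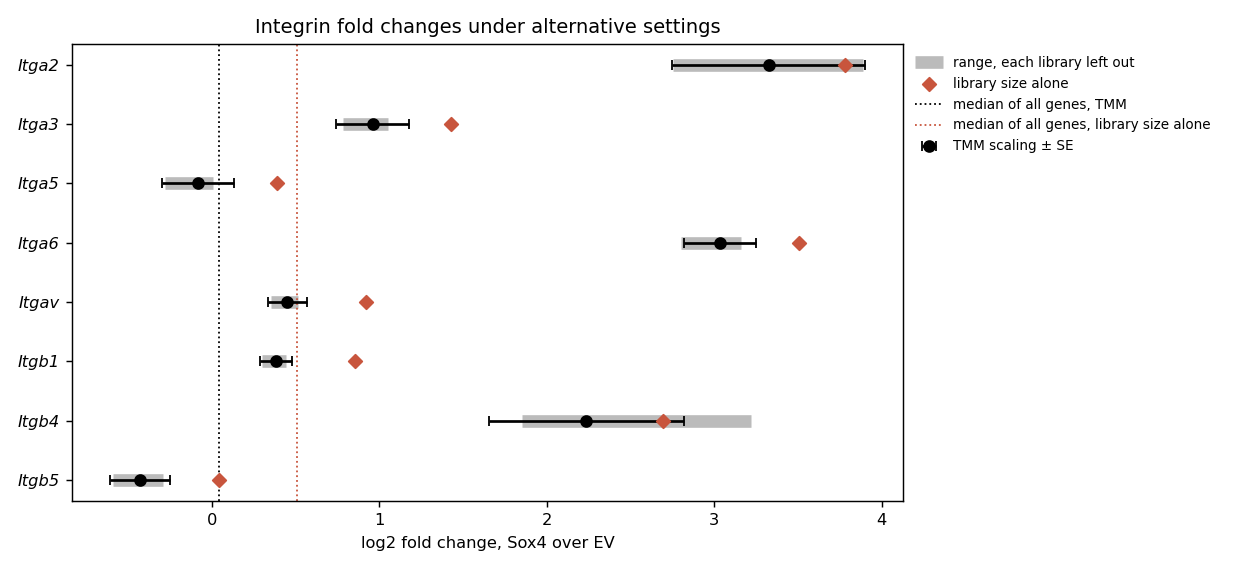
Log2 fold change of Sox4 over EV for the 8 tested integrin genes with TMM scaling (black points, bars ± SE), its range when each library was left out in turn (grey) and its value with library size alone (red diamonds). Dotted lines mark the median of all genes under each scaling, 0.041 and 0.51. Itga6 stays above 2.80 in all of these, whereas Itgb5 moves from -0.43 to 0.04 with library size alone.

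Levels of different genes were compared per kilobase of GENCODE M21 exon, since longer transcripts give more fragments. In EV the order was Itgb1 (47.4 CPM per kilobase), Itgb5 (26.0), Itga5 (7.12), Itgav (2.73), Itga3 (2.00) and Itga6 (0.291), with Itgb4, Itga2, Itgb8 and Itgb6 below, where each neighbour in the order overlapped the next. In Sox4 the order at the top was the same, but Itga3 (3.88) and Itgav (3.72) lay within each other's spread and Itga6 was at 2.39. The EV libraries thus carried mainly β1, β5 and α5 transcripts, and Itga6 moved from far below Itga3 and Itgav to the same order of level.

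The share of each subunit among α or β transcripts, by CPM per kilobase within a library, does not depend on the scaling between libraries. All integrin α or β genes in the table were counted. Itga6 made up 1.65%, 1.82% and 2.19% of α transcripts in EV and 10.2%, 10.1% and 14.6% in Sox4. Itga3 rose from 12.7% ± 0.956 to 18.9% ± 2.61, while Itga5 fell from 45.2% ± 5.06 to 33.0% ± 3.81. Itga5 remained the leading α subunit in each library, but by a smaller margin. Itgav was at 17.7% ± 3.15 and 18.2% ± 0.638, overlapping between groups. Itgb1 took 61.1%, 64.9% and 66.6% of β transcripts in EV and 70.0%, 76.0% and 79.4% in Sox4, and Itgb5 38.5%, 34.6% and 32.7% against 29.0%, 22.5% and 19.1%. Itga2, Itga3, Itga5, Itga6, Itgb1, Itgb4 and Itgb5 had shares that did not overlap between groups, each with a two-sided exact permutation p = 0.10, the smallest that 3 against 3 libraries allow (0.143 after Benjamini-Hochberg adjustment over the 10 genes). Shares within a class are parts of a whole, so these results are not independent. Itgb1 and Itgb5 made up nearly all of the β sum and mirror each other. Itga5 lost share although its own log2 fold change was -0.08 with TMM.

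**Figure D3:**
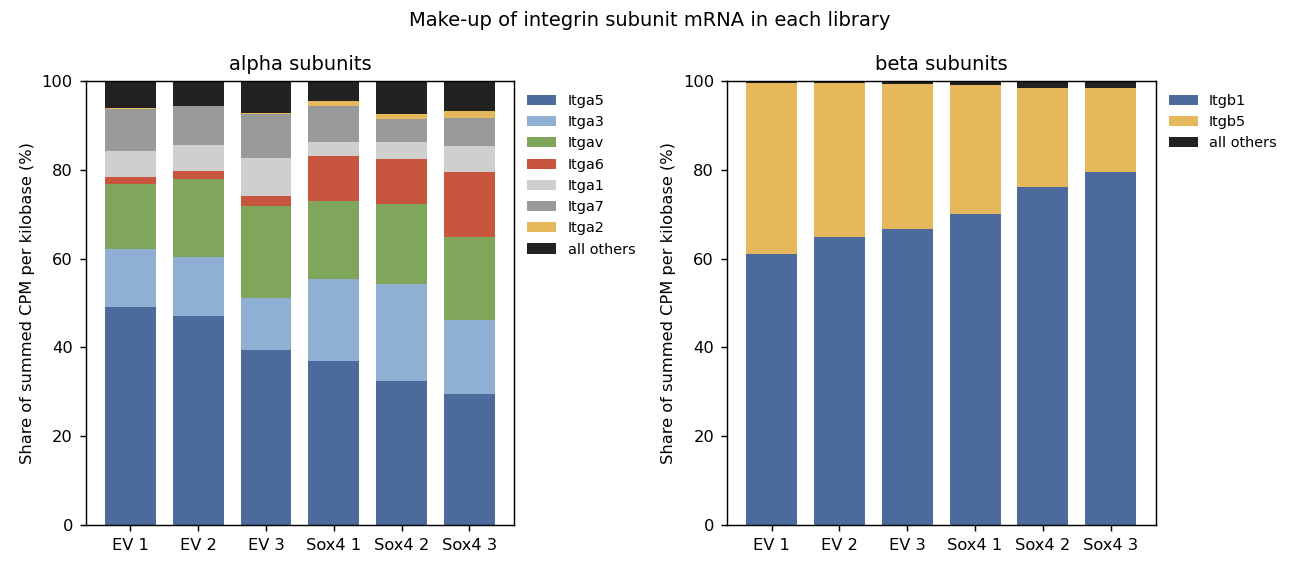
Percent of summed α (left) or β (right) integrin CPM per kilobase taken by each subunit, as stacked bars, in each of the 3 EV and 3 Sox4 libraries. Itga6 and Itga3 take more of the α sum and Itga5 less in Sox4, and Itgb1 takes more of the β sum and Itgb5 less.

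Within a library, the level per kilobase of Itgb1 was 1.59, 1.88 and 2.04 times that of Itgb5 in EV and 2.41, 3.38 and 4.17 times in Sox4. Itga5 was 3.75, 3.51 and 3.40 times Itga3 in EV but 2.02, 1.49 and 1.76 times in Sox4. Neither ratio overlapped between groups, and each had an exact two-sided permutation p = 0.10 for 3 against 3 libraries, again the smallest possible. The ratio of Itgb1 to Itgb5 restates their shares. The ratio of Itga6 to Itgb4, the chains of the hemidesmosomal dimer, averaged 8.73 ± 5.97 in EV and 9.51 ± 1.45 in Sox4 with overlapping groups (exact permutation p = 0.90, n = 3), and rested on few Itgb4 counts.

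**Figure D4:**
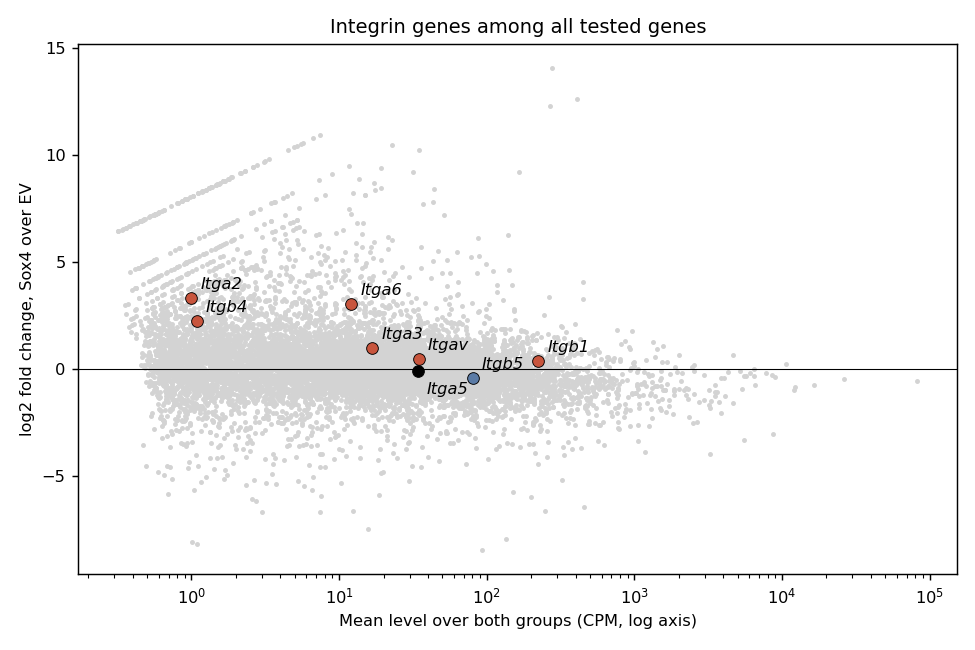
Each tested gene (grey points) by mean CPM over both groups (x, log axis) and log2 fold change of Sox4 over EV with TMM scaling (y), with the 8 tested integrin genes marked. Itga6 lies at 3.04 and Itga3 at 0.96, while Itgav, Itgb1, Itga5 and Itgb5 lie within the band of small changes, where the sign of Itga5 and Itgb5 turns with library size alone.

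The other 16 integrin subunits, chiefly of leukocytes, platelets, muscle and mesenchyme, were counted in the same way. Of these, 8 were tested and 0 passed the threshold in either direction, with 0 at an unadjusted p under 0.05 by edgeR and 0 past it by DESeq2 and limma-voom. Itga1, a collagen-binding subunit, was at 19.1 ± 1.66 and 16.4 ± 5.72 CPM. Itga7, a laminin-binding subunit best known from muscle, was at 11.9 ± 1.09 and 10.7 ± 1.68 CPM. Both had log2 fold changes below 0 with TMM and above 0 with library size alone. Itga9 had a log2 fold change of 1.09 and Itgb2, the leukocyte β subunit, of 0.94, neither past the threshold (adjusted p = 0.228 and 0.128, edgeR). Itga1 passed without Sox4 replicate 3 (-0.53), Itgb2 with library size alone (1.41) and Itga9 without the filter on low counts (1.13) and with a replicate block (1.23). Itgb3, the platelet and endothelial β subunit, had 2, 0 and 2 counts in EV and 9, 11 and 13 in Sox4 and was not tested. It passed without the filter (2.43, adjusted p = 0.0342, edgeR) and when EV replicate 1, EV replicate 3 or Sox4 replicate 1 was left out (2.78, 2.74 and 2.51). The difference between the 2 sets of subunits was not tested.

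Of 17 basement membrane genes, 13 were tested, 9 were higher and 2 lower, with a median log2 fold change of 1.56 against 0.041 over all genes tested. Of all genes tested, 29.0% were higher and 26.0% lower. Of the 9, Lama2, Lamb2 and Npnt passed the filter only through the Sox4 libraries and could be called in no other direction, which leaves 6. Lamb2, the laminin β2 chain, stood at 0.231, 0.228 and 0.290 CPM in EV and 26.5, 30.8 and 29.5 CPM in Sox4. Nid1, which links laminin to collagen IV, rose from 4.18 ± 0.804 to 79.6 ± 13.7 CPM, Lama5, the laminin α5 chain bound by α3β1 and α6β1, from 1.24 ± 0.752 to 12.4 ± 2.59 CPM, and Col4a1 from 13.2 ± 3.85 to 44.2 ± 6.04 CPM. The 2 genes that fell were Lama3 and Lamb3, chains of laminin-332, a ligand of α3β1 and α6β4, both named after their values were seen. Lama3 had 118, 104 and 119 counts in EV and 21, 24 and 7 in Sox4 (log2 fold change -3.27, adjusted p = 6.24e-05, edgeR), having passed the filter only through EV, and Lamb3 83, 50 and 46 against 18, 38 and 37 (-1.51).

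Among 20 RGD and matrix ligands in the table, 14 were tested, 8 were higher and 3 lower (median log2 fold change 1.71), beside 29.0% and 26.0% of all genes tested. Of the 8, 5 passed the filter only through the Sox4 libraries, Ccn2 and Thbs1 among them. This leaves 3 higher and 3 lower among genes that passed it through both groups. Mfge8, an RGD ligand of αv integrins, rose from 4.03 ± 0.751 to 153 ± 9.79 CPM, and the matricellular Ccn1 from 46.3 ± 5.51 to 483 ± 92.0 CPM. Spp1 (osteopontin) rose from 5.23 ± 1.44 to 38.7 ± 3.21 CPM, and Ccn2, which no EV library held above the floor, was at least 78.9-fold higher in Sox4 relative to the floor of 3 counts per library. The fibrinogen chains Fga, Fgb and Fgg fell, from 4807 ± 677 to 2265 ± 326 CPM for Fga, although Fgb did not pass with library size alone. The main hepatocyte-made ligands of α5β1 and αvβ5 did not pass the test with TMM, with Fn1 (fibronectin) at 2378 ± 168 and 2549 ± 101 CPM and Vtn (vitronectin) at 2645 ± 124 and 2461 ± 296 CPM.

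**Figure D5:**
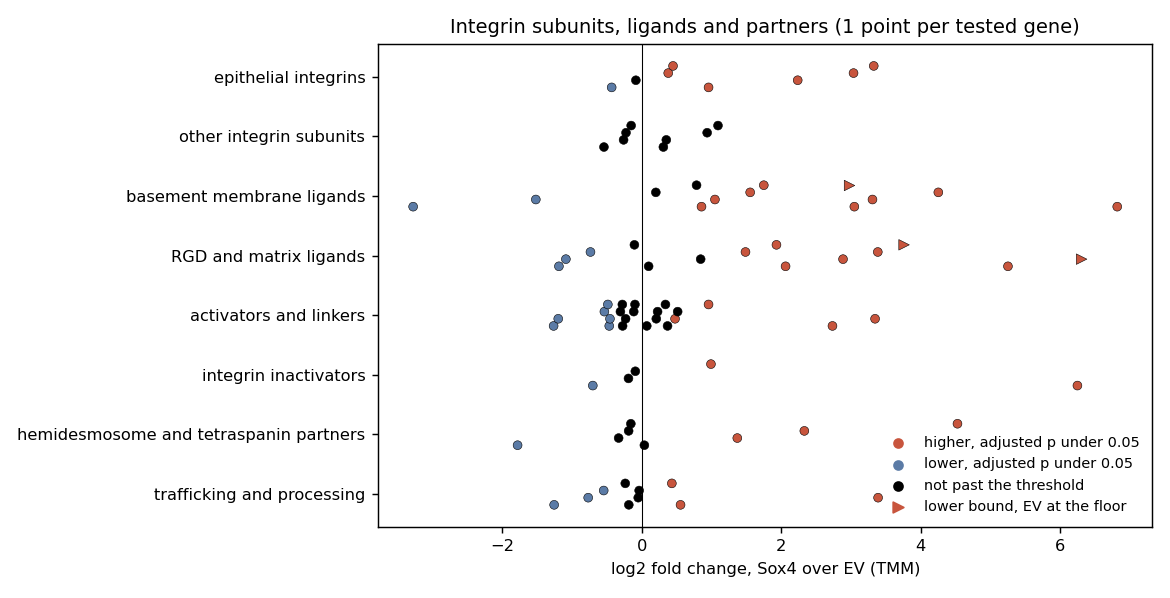
Log2 fold change of Sox4 over EV (TMM) of each tested gene in the integrin set, the other integrin subunits and 6 lists of ligands and partners. Red points were higher and blue points lower at an adjusted p under 0.05, black points did not pass, and triangles are lower bounds where EV was at the floor. Ligand lists hold 9 and 8 genes called higher, of which 3 and 5 passed the filter on low counts only through Sox4, the other subunits hold 0, and small changes shift upward with library size alone.

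Inside the cell, 22 of 27 activators and linkers were tested, of which 4 were higher and 6 lower with TMM, but 11 higher and 2 lower with library size alone (median log2 fold change -0.10 with TMM). With TMM, 29.0% of all genes tested were higher and 26.0% lower, and neither count lay far above these shares. Of the 4, Fermt1 passed the filter on low counts only through the Sox4 libraries, which leaves 3. Src, the kinase that signals from clustered integrins, rose from 3.58 ± 0.421 to 36.4 ± 8.87 CPM. Lims1 (PINCH1) rose from 18.3 ± 1.72 to 35.6 ± 5.77 CPM while its paralog Lims2 (PINCH2) fell from 54.8 ± 4.89 to 22.9 ± 1.24 CPM, and Ptk2 (focal adhesion kinase) rose from 27.0 ± 1.42 to 37.6 ± 2.96 CPM while its relative Ptk2b fell from 63.7 ± 8.66 to 27.8 ± 1.87 CPM. Parva (α-parvin) and Zyx (zyxin) had log2 fold changes of -0.48 and -0.53 that passed with TMM and not with library size alone. Talin 1, kindlin 2 and vinculin (Tln1, Fermt2, Vcl) had log2 fold changes of -0.10, -0.27 and 0.23 and did not pass with TMM, a result that may rest on the scaling.

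Of 6 inactivators, which hold integrins in their resting state, 5 were tested, 2 of them higher and 1 lower (3 and 0 with library size alone, TMM median log2 fold change -0.09). Of all genes tested, 29.0% were higher and 26.0% lower with TMM, and 5 genes are too few to set against these shares. Flna (filamin A), which competes with talin for β tails, stood at 3.77, 2.43 and 4.64 CPM in EV and 245, 307 and 271 CPM in Sox4. Sharpin fell from 36.7 ± 3.38 to 22.6 ± 2.55 CPM, a call lost with library size alone. Of 10 hemidesmosome and tetraspanin partners 8 were tested, with 3 higher and 1 lower (5 and 1 with library size alone, TMM median -0.06), again few genes beside those shares. The tetraspanins Cd151, which binds α3β1 and α6 integrins, Cd9 and Cd63 rose (Cd63 having passed the filter only through Sox4), Cd151 from 45.9 ± 4.03 to 119 ± 17.5 CPM, while Cd82 fell from 78.1 ± 7.25 to 22.8 ± 5.47 CPM. The plakins that tie β4 to keratin, Plec and Dst, did not pass with TMM, and the hemidesmosomal collagen Col17a1 had no count in any library.

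Among 12 trafficking and processing genes, 10 were tested, with 3 higher and 3 lower (5 and 1 with library size alone, TMM median -0.12). Both TMM counts were near the shares over all genes tested, 29.0% higher and 26.0% lower. The endocytic adaptor Dab2, which binds β tails, rose from 0.616, 1.29 and 1.96 CPM to 5.36, 13.9 and 21.6 CPM by library, having passed the filter only through Sox4. Within each group its libraries stood in the order of their summed Kupffer markers (13.9, 25.7 and 29.1 CPM in EV, 30.9, 60.0 and 70.9 CPM in Sox4). Their summed endothelial markers stood in the same order (22.5, 31.9 and 38.1 CPM in EV, 20.2, 41.7 and 50.5 CPM in Sox4). The part of either in the rise of Dab2 was not tested. The recycling genes Rab11a and Gga3 had log2 fold changes of 0.43 and 0.56, the latter not past the threshold without EV replicate 2 (0.51) or EV replicate 3 (0.49). Furin, the protease that cleaves the α3, α5, α6 and αv precursors, fell from 334 ± 19.3 to 140 ± 9.42 CPM. Pcsk5, a protease of the same family, and the chaperone Canx (calnexin) had log2 fold changes of -0.76 and -0.54 that passed with TMM and not with library size alone.

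Several of these integrins also mark other liver cells, and in bulk RNA fewer cells of a type and less RNA per cell cannot be told apart. The counts of called markers stand beside 29.0% higher and 26.0% lower over all genes tested. The summed cholangiocyte markers were at 42.1 to 54.4 CPM in EV, against 109 to 113 CPM with Sox4, with 3 of 6 tested genes higher (Epcam, Spp1 and Bicc1), or 5 with library size alone. Epcam and Bicc1 passed the filter on low counts only through the Sox4 libraries and could be called in no other direction, which leaves Spp1. The defining duct keratins Krt7 and Krt19 were at 0 in EV and at 9 counts or fewer in Sox4. The endothelial sum was 22.5 to 38.1 CPM in EV, against 20.2 to 50.5 CPM with Sox4, with 2 of 10 genes higher and 1 lower, and the Kupffer sum 13.9 to 29.1 and 30.9 to 70.9 CPM, with 5 of 10 higher (9 with library size alone). Of those 5 Kupffer genes, Marco and Cd68 passed the filter only through Sox4, which leaves 3. The stellate sum was 8.54 to 45.7 and 80.1 to 140 CPM, with 3 of 4 tested genes higher. Of those 3, Col1a2 and Col3a1 passed the filter only through Sox4, which leaves Reln. Most of the stellate sum was Reln, at 126, 117 and 50.7 CPM in Sox4, whereas Dcn was at 3.55, 12.4 and 16.9 CPM in the same libraries. Mesothelial markers summed to 0.759 CPM at most and 4 of 6 platelet markers were at 0 in all libraries. The hepatocyte markers were abundant in all libraries, at 120672 to 142476 CPM in EV, against 81331 to 91616 CPM with Sox4, and 8 of 10 were lower (6 with library size alone). In Sox4 replicate 1 the endothelial sum was 20.2 CPM, the Kupffer sum 30.9 CPM, the stellate sum 134 CPM and the cholangiocyte sum 113 CPM, with Itga6 at 17.6 CPM and Itgb8 at the floor. The part of these marker changes in the integrin and ligand values was not tested.

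The genes whose log2 CPM over the 6 libraries was most like that of Itga6, among those with a mean count of at least 100, were Nr2f2 (COUP-TFII, a nuclear receptor), H19 (an imprinted noncoding RNA of fetal liver) and Paip1 (a poly(A)-binding protein partner), each with Pearson's r of 0.998. H19 had 0, 3 and 1 counts in EV and 6125, 6918 and 18798 in Sox4, with its highest library the same as that of Itga6. Nr2f2 moved little, from 28.2 ± 0.486 to 38.0 ± 1.29 CPM, and Paip1 from 49.1 ± 3.05 to 116 ± 9.29 CPM. The 6 points share their libraries and split by group, so these r values are a description only.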

How the data were processed

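Per the labels and the study's methods, the authors aligned reads to GRCm39 with STAR 2.7.10b and summed them per gene with featureCounts 2.0.1. The deposited values used here are these raw counts, with no normalization. A normalized table was also deposited but not used here, since its header is shifted. Groups came from sample titles. Genes with at least 10 counts at the median library size in 3 libraries and 15 in all (filterByExpr) were tested with edgeR 4.0.16 (quasi-likelihood, TMM, robust) in R 4.3.3, with Benjamini-Hochberg adjustment over all tested genes. Fold changes came from the edgeR fit itself. SE is that of the difference of mean log2 CPM, computed with a prior count of 2. That prior narrows the spread of low genes such as Itga2 and Itgb4, so their SE may understate it. DESeq2 1.42.0 and limma-voom (3.58.1) were alternatives. Chi-square per degree of freedom between replicates was 17.6 or more, so no library was a duplicate of another. The fit was tested on simulated data. Exon lengths came from GENCODE M21 on GRCm38, an older build than that of the counts. Named were all integrin genes and, per list, the called genes whose mean count reached 100, at most the 4 with the largest change in each direction. Genes named as not passing were chosen after their values were seen. The members and lists were chosen with earlier results of these data known. Intervals cover counting error only. Of the genes this rule chose, 1 is not reported here.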

Additional observations from a re-analysis of the deposited data

How the results depend on the processing

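The number of genes called, 6990, lay between 5937 and 8092 under another normalization, filter or tool and between 6027 and 7269 when a library was left out. Among the integrin genes, 4 to 7 were higher under these settings, against 6, and leaving out a library gave 4 to 7 higher and 0 to 1 lower. These counts include Itga2 and Itgb4 wherever those genes entered the test. With a mean count of at least 50, the low genes Itga2 and Itgb4 left the test, and without the filter Itgb8 was the added gene. With library size alone, 0 were lower, against 1, and the log2 fold change turned to 0.39 for Itga5, 0.041 for Itgb5, 0.25 for Itga1, 0.32 for Itga7 and 0.21 for Itga10. When a library was left out, Itga5 ranged from -0.28 to 0.0074 and Itga10 from -0.72 to 0.019. Of 102 alternative values of the tested members, 89 kept their direction and side of the threshold, 10 no longer passed and 3 turned in direction. Of 514 values of the other named genes, 497, 8 and 5 did so and 4 newly passed.

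The same-numbered EV and Sox4 libraries were not treated as pairs. Their deviations from the group means correlated by 0.27, -0.09 and 0.13, which cannot settle whether they shared a processing step. With a replicate block, 7362 genes and 6 integrin genes higher were called, and Itga9 passed at 1.23. No call of a tested member was lost under the block. Counts of 10 or fewer per library limit Itga2, Itgb4, Itgb6 and Itgb8 in EV.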
